A study of Mus musculus with 6 samples.

Results

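Adenylyl cyclases and cAMP phosphodiesterases are described here by the mRNA levels of 10 of their genes in RAW 264.7 cells, a mouse macrophage-like line, with and without a knockout of Apobec1. The genes were taken by symbol from the 24848 rows of the deposited table. They are 4 cyclases (Adcy3, Adcy6, Adcy7 and Adcy9) and 6 phosphodiesterases (Pde3b, Pde4a, Pde4b, Pde4d, Pde7a and Pde8a). All 10 rows were found. These genes were chosen by family with the CPM values of the same comparison, KO against WT, in view. Their differences between genotypes are therefore a description, and their calls come from a fit over the whole table and support nothing further.

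The compared groups were 3 libraries of cells labelled APOBEC1 KO (KO) and 3 libraries of cells labelled WT. Both groups were the same RAW 264.7 line, grown in the same high-glucose medium with serum, with no treatment named, and RNA was taken from separate plates. APOBEC1 is a cytidine deaminase that edits C to U in RNA, and the series served to set a Sanger-based measure of editing against RNA sequencing. The labels give neither the way the knockout was made nor the number of clones, so genotype and any other difference between the cell lines cannot be told apart. The p-values measure the spread between plates.

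Adenylyl cyclases make cyclic AMP (cAMP) from ATP. The membrane-bound forms are switched on by the G protein subunit Gs and most are held back by Gi, each released by receptors at the cell surface. Cyclic AMP acts through protein kinase A (PKA), the exchange factor Epac and, in the nucleus, the CREB family, and phosphodiesterases end the signal by hydrolysing it. In macrophages a rise in cAMP is known to restrain inflammatory cytokine production and phagocytosis.

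Each library held 50493447 to 70411383 reads assigned to genes, and levels are given as CPM, read counts scaled to the library total. A single read was worth 0.0142 to 0.0198 CPM, and a count of 0 allows up to 3 reads, 0.0426 to 0.0594 CPM, by counting error alone. Apobec1 mRNA stood at 339, 340.1 and 361 CPM in KO and 373, 431 and 396 CPM in WT, so the transcript was present in both groups, and its level does not check the labels. All 10 macrophage markers examined, among them Adgre1, Cd68 and Csf1r, were at 14.1 CPM or more in every library. Some of them differed between genotypes: Lyz2 (1.75-fold), Spi1 (1.31-fold) and Mertk (1.26-fold) were called higher in KO, and Adgre1 and Fcgr1 were called lower, at 0.704 and 0.811 of their WT means. Spi1 and Mertk lie on chromosome 2, whose 856 tested genes had a median log2 fold change of 0.34. The part of that shift in their values was not tested, and neither was the part of the marker differences in the results. Of 21 markers of epithelial, fibroblast, T, B, endothelial and neutrophil cells, 10 were at 0 in all libraries and all but S100a8 stayed at or below 0.335 CPM. S100a8 was at 3.12 to 4.55 CPM in KO and 0.856 to 1.07 CPM in WT, while the neutrophil markers Ly6g and S100a9 were at 0 in every library.

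A gene was tested if it had at least 1 CPM in at least 3 libraries. The test was limma on log2(CPM + 0.5), and an adjusted p under 0.05 (Benjamini-Hochberg over all tested genes) was a call. Log2 fold changes are KO against WT ± SE on that scale, which understates the change of low genes, and folds are ratios of mean CPM. Of the 10 genes, 9 were tested and 6 were called, 1 higher and 5 lower in KO. The background over the 10614 genes was 30.4% called, with 13.5% above and 16.9% below WT. Chromosome 2, which holds none of the 10 genes, had 499 of the 1436 genes called higher. Of its tested genes 58.3% were higher, against 5.61% (chromosome 6) to 12.5% (chromosome 16) on the other autosomes and X. With edgeR and DESeq2, 6 of the 9 were called as well, against 31.6% of all genes with edgeR and 35.4% with DESeq2. KO and WT values were fully separate for 7 of the 9, against 46.4% of all tested genes. The median log2 fold change was -0.40 over the 9 and -0.02 over all tested genes. Adcy6 passed the filter on low values only through its WT libraries, so it had to differ once tested.

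**Figure D1:**
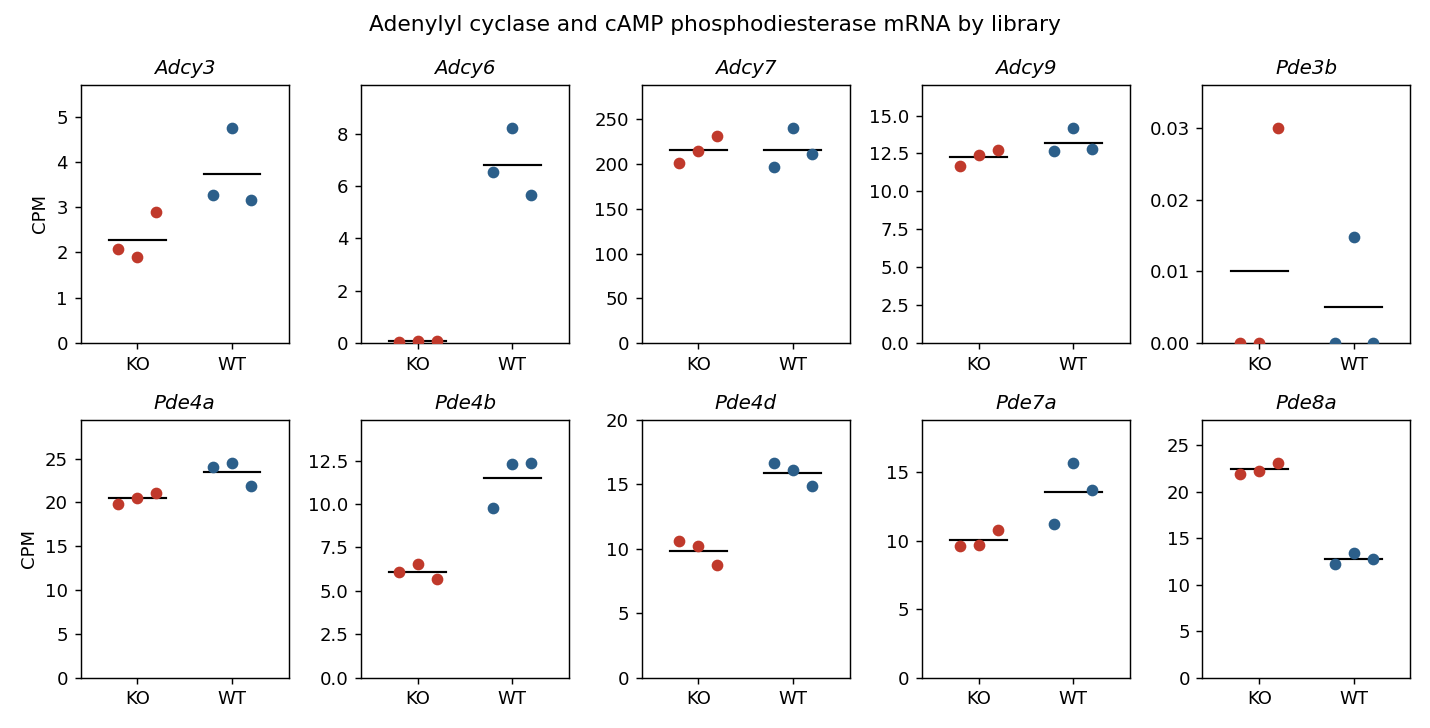
CPM (linear axis starting at 0, a separate scale for each gene) of the 10 genes in the 3 KO and 3 WT libraries. Points are libraries and lines are group means. Adcy6 lies at 0.0426 to 0.0900 CPM in KO and 5.65 to 8.22 CPM in WT, and Pde8a is the gene whose KO values all lie above its WT values by a wide gap.

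Among the cyclases, Adcy6 was nearly absent from KO cells and Adcy3 was lower there, while Adcy7 and Adcy9 were not called. Adcy6 encodes a cyclase that is stimulated by Gs and inhibited by calcium. Adcy7 is the cyclase known from blood cells, Adcy3 is known from olfactory neurons and primary cilia, and Adcy9 is a widely expressed form that responds poorly to forskolin.

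Adcy6 (ENSMUSG00000022994.9, mm10 chromosome 15, 98589973 to 98610076, minus strand) had 3, 5 and 6 reads in the KO libraries and 330, 554 and 330 reads in the WT libraries. These equal 0.0426, 0.0837 and 0.0900 CPM in KO, against 6.54, 8.22 and 5.65 CPM in WT. Every KO value was close to the level of a few reads, and every WT value was well above it. The summed reads gave a rate 96.8 times lower in KO, with an exact Clopper-Pearson 95% interval of 57.5 to 178 that covers counting error only. The log2 fold change was -3.66 ± 0.14 (limma adjusted p = 1.86e-06), and edgeR, which does not add a pseudocount of this size, gave -6.51. Of its exon bases, 8.92% are shared with the antisense gene Gm29331, and no source says whether strand was used in counting.

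Adcy3 (chromosome 12, 4133103 to 4213525, plus strand) was at 2.07, 1.89 and 2.88 CPM in KO and 3.27, 4.75 and 3.17 CPM in WT. The groups did not overlap, but the highest KO and the lowest WT library were close together. The log2 fold change was -0.60 ± 0.18 (limma adjusted p = 0.0395). In 7 of 15 alternatives it was no longer called, for example when WT replicate 2 was left out, where limma gave -0.43 and an adjusted p of 0.0599, with adjusted p of 0.0118 to 0.135 over the 15. Of its exon bases, 22.1% are shared with Cenpo on the opposite strand, which stood at 29.3 ± 1.45 CPM in KO and 26.5 ± 0.760 CPM in WT (SD, n = 3 each), so reads of the shared stretch may belong to either gene.

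Adcy7 (chromosome 8, 88272403 to 88329962, plus strand) had 201, 214 and 232 CPM in KO and 197, 240.5 and 211 CPM in WT. The groups overlapped fully. The log2 fold change was -0.0016, with a 95% interval of -0.21 to 0.21 (limma adjusted p = 0.992). Adcy9 (chromosome 16, 4287529 to 4420498, minus strand) had 11.6, 12.4 and 12.7 CPM in KO and 12.7, 14.2 and 12.8 CPM in WT. Its groups overlapped at the edge, with a log2 fold change of -0.10 ± 0.08 and an interval of -0.29 to 0.09 (limma adjusted p = 0.399).

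Levels of different genes were compared per length, as CPM per kb of merged exon. In KO cells Adcy7 was at 32.0 ± 2.32, Adcy9 at 2.36 ± 0.107, Adcy3 at 0.365 ± 0.0844 and Adcy6 at 0.0106 ± 0.00379 CPM per kb (SD, n = 3). In WT cells Adcy7 was at 32.1 ± 3.29, Adcy9 at 2.54 ± 0.164, Adcy6 at 1.00 ± 0.193 and Adcy3 at 0.597 ± 0.142 CPM per kb. Adcy7 led by more than the spread in both groups, and Adcy3 and Adcy6 stood in the opposite order. Adcy7 thus made up 91.9 ± 0.0717% of the summed level of 10 cyclase genes in KO and 87.9 ± 0.537% in WT. Adcy6 held 0.0302 ± 0.00935% in KO and 2.74 ± 0.338% in WT. The sum itself was 34.8 ± 2.50 CPM per kb in KO and 36.5 ± 3.72 CPM per kb in WT, a difference smaller than either SD.

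The other 6 cyclase genes (Adcy1, Adcy2, Adcy4, Adcy5, Adcy8 and Adcy10) stayed below the filter, so 0 of 6 were tested. Adcy2, a cyclase stimulated by G protein beta-gamma subunits, was named after its values were seen, because its reads separate as those of Adcy6 do. It stood at 0.0568, 0.0837 and 0.0450 CPM in KO and 0.931, 0.786 and 0.890 CPM in WT. The rate of summed reads, 12 in KO and 152 in WT, was 14.1 times lower in KO (exact 95% interval 7.86 to 28.0, counting error only). In bulk RNA, fewer cells with a transcript and less of it in each cell cannot be told apart.

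Among the phosphodiesterases, Pde8a was higher in KO, Pde4b, Pde4d and Pde7a were lower, Pde4a was not called and Pde3b was not detected above the floor. The Pde4 genes encode cAMP-specific enzymes that rolipram inhibits, and Pde4b is known to be needed for full TNF production by mouse macrophages given endotoxin. Pde7a and Pde8a encode cAMP-specific enzymes that rolipram does not inhibit, and Pde8a has a high affinity for cAMP. Pde3b encodes an enzyme that cGMP inhibits and that insulin activates in fat cells.

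Pde8a (chromosome 7, 81213596 to 81334533, plus strand) was at 21.9, 22.2 and 23.1 CPM in KO, against 12.2, 13.4 and 12.8 CPM in WT. It was 1.75-fold higher in KO, the one tested phosphodiesterase among the 10 genes with all KO values above all WT values. The log2 fold change was 0.79 ± 0.07 (limma adjusted p = 0.000195).

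Pde4b (chromosome 4, 102087543 to 102607259, plus strand) was at 6.08, 6.54 and 5.70 CPM in KO and 9.78, 12.3 and 12.4 CPM in WT. All KO values lay below all WT values, and KO stood at 0.532 of the WT mean (log2 fold change -0.85 ± 0.11, limma adjusted p = 0.00108). Pde4d (chromosome 13, 108449948 to 109953461, plus strand) was at 10.6, 10.2 and 8.73 CPM in KO and 16.7, 16.1 and 14.8 CPM in WT. KO stood at 0.621 of the WT mean, again without overlap (log2 fold change -0.66 ± 0.10, limma adjusted p = 0.00176).

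Pde4a (chromosome 9, 21165714 to 21213248, plus strand) was at 19.8, 20.5 and 21.1 CPM in KO and 24.1, 24.5 and 21.9 CPM in WT. The groups did not overlap, but the difference was not called (log2 fold change -0.19 ± 0.08, interval -0.37 to -0.02 before adjustment, limma adjusted p = 0.0912). Per length, Pde4a, Pde4b and Pde4d summed to 4.07 ± 0.0721 CPM per kb in KO and 5.48 ± 0.223 CPM per kb in WT.

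Pde7a (chromosome 3, 19223108 to 19311322, minus strand) was at 9.66, 9.72 and 10.8 CPM in KO and 11.2, 15.7 and 13.7 CPM in WT. The WT libraries were spread widely, and the lowest of them lay just above the highest KO library. The log2 fold change was -0.40 ± 0.13 (limma adjusted p = 0.0437), and the call was lost under 8 of 16 alternative settings, with adjusted p of 0.00540 to 0.142 over all 16. Pde3b (chromosome 7, 114415281 to 114539251, plus strand) had 2 reads in KO replicate 3, 1 read in WT replicate 2 and 0 reads in the other 4 libraries. No difference between genotypes was detectable for it at this depth.

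KO replicate 3 was the highest KO library for 7 of the 9 tested genes, and WT replicate 2 was the highest WT library for 7 of the 9. The ribosomal RNA precursor Rn45s took 0.542% to 1.40% of the reads in the KO libraries, against 0.381% in WT replicate 2 and 2.43% to 2.75% in the other WT libraries. With library totals taken without Rn45s, the same number of genes, 6, was called among the 10, again 1 higher and 5 lower.

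**Figure D2:**
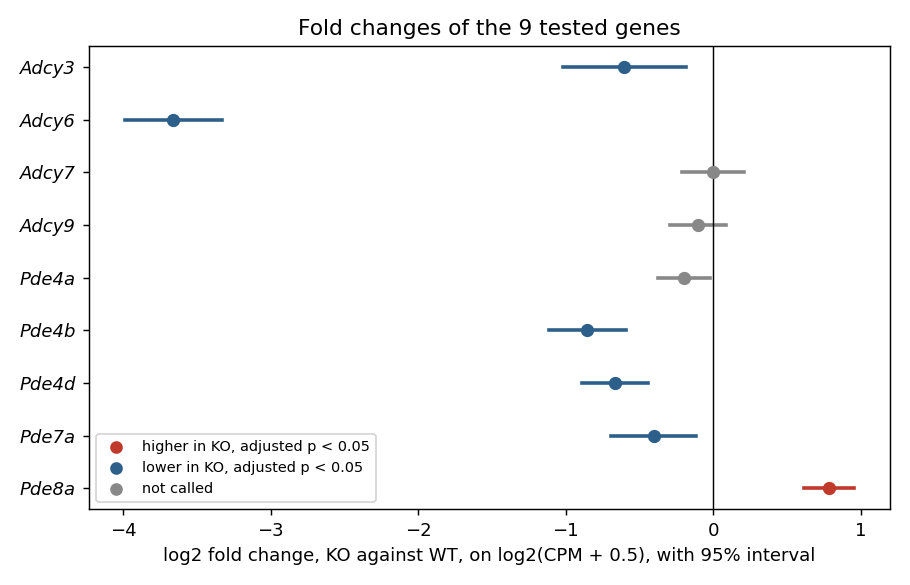
Log2 fold change of the 9 tested genes, KO against WT on log2(CPM + 0.5), with bars for the 95% interval of limma before adjustment. Adcy6 stands at -3.66, Pde8a at 0.79 on the other side of 0, and the intervals of Adcy7 and Adcy9 cross 0.

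The 6 phosphodiesterases are part of a larger family of cAMP-hydrolysing enzymes. Of the 10 other cAMP phosphodiesterase genes, 3 were tested. Pde2a, whose enzyme is stimulated by cGMP, was at 37.5, 45.4 and 41.2 CPM in KO and 24.1, 21.3 and 21.9 CPM in WT (log2 fold change 0.87 ± 0.09, limma adjusted p = 0.000346). It shares 64.3% of its exon bases with the same-strand gene model Gm45837, which has no row in the table. Pde1b, whose enzyme needs calcium and calmodulin, was at 7.10, 4.13 and 9.45 CPM in KO and 16.1, 34.9 and 17.6 CPM in WT (log2 fold change -1.64 ± 0.34, limma adjusted p = 0.00912). WT replicate 2 stood far above the other WT libraries, and without it the log2 fold change was -1.297 (adjusted p = 0.00416, and 0.00143 to 0.0364 over 16 alternative settings). Pde8b, the close relative of Pde8a, was at 30.5, 29.6 and 30.5 CPM in KO and 32.9, 36.4 and 31.9 CPM in WT and was not called (limma adjusted p = 0.153).

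Per kb of merged exon, Pde2a led the family in KO cells at 6.73 ± 0.641, followed by Pde8a at 5.54 ± 0.153 and Pde8b at 5.14 ± 0.0882 CPM per kb. In WT cells Pde8b was at 5.74 ± 0.402, Pde1b at 4.23 ± 1.93, Pde2a at 3.65 ± 0.239, Pde8a at 3.16 ± 0.148 and Pde4a at 3.07 ± 0.188 CPM per kb. Within WT and by merged exons, Pde8a and Pde4a differed by less than their spread. Pde1b did not separate from Pde8b, Pde2a, Pde8a or Pde4a, with 2.98, 6.46 and 3.26 CPM per kb in WT replicates 1, 2 and 3. The share of Pde8a in the summed level of the 16 genes was 22.9 ± 0.243% in KO and 13.2 ± 0.937% in WT, and that of Pde4a, Pde4b and Pde4d together was 16.9 ± 0.628% in KO and 22.8 ± 1.72% in WT. The sum of all 16 was 24.2 ± 0.745 CPM per kb in KO and 24.1 ± 2.75 CPM per kb in WT. The order of these genes depended on the length used. With the longest annotated transcript, Pde8b at 7.13 ± 0.122 stood above Pde8a at 5.89 ± 0.163 CPM per kb in KO, with Pde2a still highest at 9.81 ± 0.935. In WT, Pde4a at 5.05 ± 0.309 and Pde4d at 3.77 ± 0.222 then stood above Pde8a at 3.37 ± 0.157 CPM per kb. By that length the Pde8a share was 17.1% in KO and 9.40% in WT. The 6 genes together held 45.2% in KO and 43.2% in WT by merged exons, but 45.5% in KO and 47.5% in WT by longest transcripts, so that order turned with the choice of length.

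**Figure D3:**
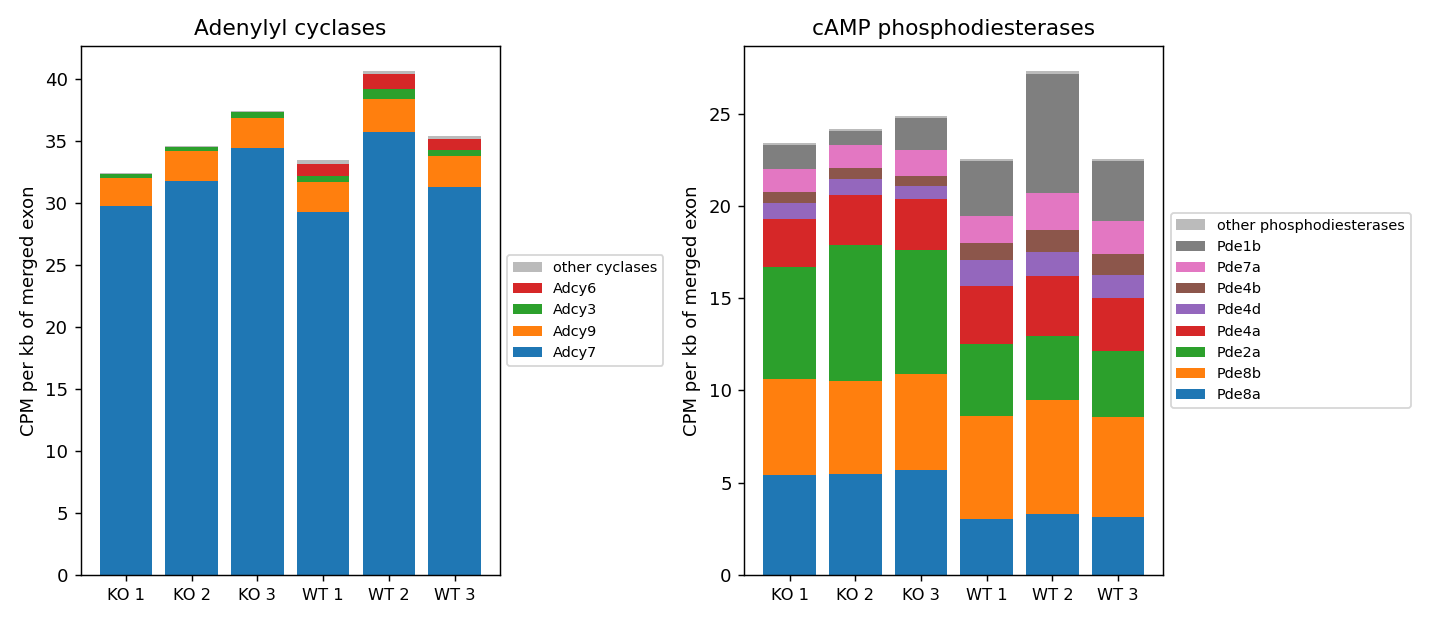
Stacked levels (CPM per kb of merged exon) in each of the 3 KO and 3 WT libraries, with adenylyl cyclases on the left and cAMP phosphodiesterases on the right. Adcy7 fills most of every cyclase bar. In the phosphodiesterase bars, Pde8a and Pde2a take a larger part and Pde1b a smaller part in KO libraries, while the totals average 24.2 in KO and 24.1 in WT.

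RefSeq promoter windows (build GRCm38.p6) were matched by symbol for 7 of the 10 genes, with 15 annotated starts in all. Adcy6, Pde3b and Pde7a had none. The 250 bases before each start were searched on both strands for TGACGTCA, the full site that CREB binds (CRE), for TGACG, its core and a part of it, and for CCGCCC, the GC box. The full site was in 0 of the 15 windows and in 1.55% of all 32851 windows. The core was in 5 of the 15 windows, 1 in each of Adcy7, Adcy9, Pde4a, Pde4b and Pde8a, and in 17.8% of all windows. The GC box was in 6 of the 15 and in 32.7% of all. The table of levels does not say which start was used, so a match describes the letters of a window only.

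The windows shown belong to the dominant cyclase, Adcy7, to Pde4b and Pde4d, which were lower in KO, and to Pde8a, which was higher. For Adcy7 and Pde4b the start whose window holds the core is shown. Each is written 5′ to 3′ on the plus strand, and capitals mark the CRE core and the GC boxes on either strand.
Adcy7, chr8:88282742-88282991: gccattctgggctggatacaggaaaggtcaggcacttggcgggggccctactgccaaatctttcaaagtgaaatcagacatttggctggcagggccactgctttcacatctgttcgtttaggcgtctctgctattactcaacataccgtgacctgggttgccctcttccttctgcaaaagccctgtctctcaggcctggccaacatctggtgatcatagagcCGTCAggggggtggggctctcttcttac
Pde4b, chr4:102421305-102421554: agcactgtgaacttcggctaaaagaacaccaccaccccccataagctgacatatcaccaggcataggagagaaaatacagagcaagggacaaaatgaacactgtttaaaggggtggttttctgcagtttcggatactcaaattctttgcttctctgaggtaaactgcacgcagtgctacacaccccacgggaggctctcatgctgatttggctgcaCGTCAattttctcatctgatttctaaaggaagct
Pde4d, chr13:108653927-108654176: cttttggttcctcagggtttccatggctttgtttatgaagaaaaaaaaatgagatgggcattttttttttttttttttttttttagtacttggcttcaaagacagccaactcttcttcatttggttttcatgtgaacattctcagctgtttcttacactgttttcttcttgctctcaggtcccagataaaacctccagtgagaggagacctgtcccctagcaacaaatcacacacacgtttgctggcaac
Pde8a, chr7:81213015-81213264: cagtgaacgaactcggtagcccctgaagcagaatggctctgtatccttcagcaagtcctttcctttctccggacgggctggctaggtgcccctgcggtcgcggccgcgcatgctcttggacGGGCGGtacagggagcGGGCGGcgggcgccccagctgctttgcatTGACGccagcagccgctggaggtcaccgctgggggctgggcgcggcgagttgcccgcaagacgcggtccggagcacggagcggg

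The core began 28 bases before the start in Adcy7, 34 in Pde4b and 84 in Pde8a. The core thus lay in windows of a gene that was lower in KO, of one that was higher and of one that was not called. The Pde8a window was 68.8% G and C with 27 CpG dinucleotides and 2 GC boxes. The Pde4b window was 46.0% G and C with 5 CpG, and the Pde4d window 38.8% with 1 CpG and no match to any of the 3 motifs.

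Genes around the cyclases and phosphodiesterases were read from lists of the cAMP pathway. Of 139 listed genes besides the 10, 76 were tested, 10 were higher and 15 lower in KO, and 51 were not called, a share of called genes near the 30.4% of all tested genes. The median log2 fold change was -0.05, against -0.02 over all tested genes. The counts of single lists below stand against 30.4% called, 13.5% higher and 16.9% lower over all tested genes. With trimmed-mean scaling (TMM) the split was 16 higher and 13 lower, against 1839 higher and 1570 lower over all tested genes. Without KO replicate 1, 15 of the 76 tested genes were called, against 1973 of all 10614 tested genes.

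Receptors act on cyclases through Gs, which stimulates them, and Gi. Of 22 Gs-coupled receptor genes, 5 were tested, 2 were lower in KO and 3 were not called. TMM scaling and quantile normalization also called the prostacyclin receptor gene Ptgir higher, and DESeq2 called Calcrl lower. Ptger4, which encodes the prostaglandin E2 receptor EP4, was at 2.81, 3.28 and 3.15 CPM in KO and 9.27, 9.87 and 9.54 CPM in WT (log2 fold change -1.49 ± 0.09, limma adjusted p = 1.81e-05). All KO values were far below all WT values. Gpr65, a proton-sensing receptor, was at 15.0, 16.2 and 15.3 CPM in KO and 20.6, 25.1 and 25.4 CPM in WT (log2 fold change -0.59 ± 0.10, limma adjusted p = 0.00319). On the opposite strand, Ttc33 and the gene model Gm15937 share 16.5% of the exon bases of Ptger4, and Gm47566 shares 24.7% of those of Gpr65.

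Of 11 Gi-coupled receptor genes, 4 were tested and all 4 were higher in KO, each without overlap between groups. Over all tested genes, 13.5% were higher and 46.4% did not overlap. None of the 4 lies on chromosome 2, where 58.3% of the tested genes were higher. Gpr84, a receptor of medium-chain fatty acids, was at 4.40, 4.68 and 3.77 CPM in KO and 2.34, 1.68 and 2.07 CPM in WT (log2 fold change 0.92 ± 0.13, limma adjusted p = 0.00149). S1pr1, a sphingosine 1-phosphate receptor, was at 31.3, 34.2 and 31.0 CPM in KO and 18.0, 21.9 and 22.8 CPM in WT (log2 fold change 0.62 ± 0.10, limma adjusted p = 0.00310). The cannabinoid receptor gene Cnr2 was 1.35-fold and the niacin receptor gene Hcar2 1.51-fold higher. Their calls were lost under 4 of 16 and 6 of 15 alternative settings. The gene model Gm49482 shares 39.5% of the exon bases of Gpr84 on the opposite strand.

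Most G protein genes were not called. Of 23, 13 were tested and 1, Gng7, a gamma subunit, was lower, at 7.27 ± 0.638 CPM in KO and 9.35 ± 0.433 CPM in WT (limma adjusted p = 0.0249, lost under 7 of 16 settings). TMM scaling lost Gng7 and called Gnai3, Gng5 and Gng10 higher. DESeq2 called the same 3 genes and Gnas higher and kept Gng7 lower. Ric8b, a chaperone of G protein alpha subunits, was called lower by edgeR (adjusted p = 0.0405) and DESeq2 (adjusted p = 0.0251), but not by limma (adjusted p = 0.0592). Gnas, which encodes the Gs alpha subunit, was at 751, 808 and 789 CPM in KO and 724, 653 and 662 CPM in WT, and missed the limma threshold (log2 fold change 0.20 ± 0.07, adjusted p = 0.0558, and 0.0140 to 0.195 over 16 alternative settings). Genes on the opposite strand share 22.0% of its exon bases. Gnas lies on chromosome 2, whose 856 tested genes had a median log2 fold change of 0.34, and the part of that shift in its value was not tested. None of the 10 cyclase and phosphodiesterase genes lies on chromosome 2.

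Downstream, PKA genes were called in both directions. Of 9 tested, 2 were higher and 1 lower, where 30.4% of all tested genes were called. TMM scaling and DESeq2 also called Prkar2b higher. Pkig, a PKA inhibitor gene, was at 62.1 ± 2.96 CPM in KO and 43.7 ± 1.304 CPM in WT (log2 fold change 0.50 ± 0.07, limma adjusted p = 0.00104). It also lies on chromosome 2, with the part of the shift again not tested. Prkar2a, a type II regulatory subunit, was 1.25-fold higher, and Prkar1b, a type I regulatory subunit, was at 4.42 ± 0.443 CPM in KO and 6.09 ± 0.603 CPM in WT, a call lost under 5 of 16 settings. The catalytic subunit genes were not called, with Prkaca at 94.5 ± 4.79 CPM in KO and 107 ± 10.3 CPM in WT, and Prkacb at 143 ± 2.30 CPM in KO and 142 ± 12.8 CPM in WT.

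On the Epac side, Rapgef3 and Rapgef4, which encode the Epac proteins, stayed below the filter in every library. Of 6 tested genes of that list, 1 was higher and 1 lower. Rap1gap, which turns off the GTPase Rap1, was at 0.185, 0.184 and 0.255 CPM in KO and 1.49, 1.87 and 1.03 CPM in WT (log2 fold change -1.45 ± 0.17, limma adjusted p = 0.000549). Like Adcy6, it passed the filter only through its WT libraries, so its groups had to separate once it was tested. Rap2a was 1.22-fold higher, a call lost under 4 of 16 settings. Of 10 tested A-kinase anchoring protein genes, 1 was lower. It was Akap3, known from sperm, at 1.41 ± 0.207 CPM in KO and 3.32 ± 0.405 CPM in WT (limma adjusted p = 0.000843). It lies on chromosome 6, whose 517 tested genes had a median log2 fold change of -0.16, a shift whose part in its value was not tested. TMM scaling and DESeq2 also called Akap13 higher.

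In the CREB family and its coactivators, 2 of 11 tested genes were lower and the other 9 were not called. That count of lower genes is near the 16.9% of all tested genes. Crem, a CREB relative whose short product represses cAMP-induced genes, was at 8.19, 7.51 and 7.37 CPM in KO and 10.7, 14.3 and 12.9 CPM in WT (log2 fold change -0.67 ± 0.11, limma adjusted p = 0.00354). Crtc3, a coactivator, was at 19.4 ± 1.38 CPM in KO and 24.7 ± 2.59 CPM in WT, a call lost under 8 of 16 settings. Creb1 was not called, at 86.2 ± 5.89 CPM in KO and 78.2 ± 18.1 CPM in WT.

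Of 20 transcripts known to be inducible by cAMP in various cells, 13 were tested, 5 were lower, 1 was higher and 7 were not called. The shares over all tested genes were 16.9% lower and 13.5% higher. Vegfa, an angiogenic factor, was at 50.2 ± 1.89 CPM in KO and 69.6 ± 3.44 CPM in WT (limma adjusted p = 0.00158). Gem, a small GTPase, was at 1.58 ± 0.198 CPM in KO and 3.36 ± 0.509 CPM in WT (limma adjusted p = 0.00179), and Nr4a1, a nuclear receptor, was 0.713 of its WT mean, a call lost under 5 of 16 settings. Smad6, an inhibitor of BMP signalling, was 1.53-fold higher. Cebpb, a transcription factor gene on chromosome 2, was not called by limma (adjusted p = 0.0741) but was called higher by DESeq2 (adjusted p = 0.0257) and by limma without WT replicate 1 (adjusted p = 0.00491).

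Among the immediate early genes of that list the WT libraries stood apart from each other. Fosb was at 1.99, 3.58 and 1.59 CPM in KO and 3.51, 18.1 and 18.9 CPM in WT. Dusp1, a MAP kinase phosphatase, was at 9.52, 12.2 and 9.77 CPM in KO and 13.3, 27.7 and 31.1 CPM in WT. Fos was at 10.9, 15.3 and 10.1 CPM in KO and 9.31, 35.2 and 45.0 CPM in WT. For all 3 genes WT replicate 1 lay within or near the KO values, and the other WT libraries lay well above them. Fosb and Dusp1 were called lower (limma adjusted p = 0.0315 and 0.0246), and both calls were lost without KO replicate 1, without KO replicate 3 or without WT replicate 3, with adjusted p of 0.000218 to 0.106 for Fosb and 0.000150 to 0.0938 for Dusp1 over their alternatives. Fos was called only without WT replicate 1 (a log2 fold change of -1.70 with an adjusted p of 0.000457, against 0.171 with all libraries and up to 0.433 without 1 of the others).

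The cAMP exporters were called on both sides. Abcc5 was at 127, 128 and 153 CPM in KO and 194, 246 and 191 CPM in WT (log2 fold change -0.62 ± 0.12, limma adjusted p = 0.00564). Abcc4 was 1.14-fold higher in KO, at 85.2 ± 2.77 CPM in KO and 74.5 ± 1.35 CPM in WT, a call lost under 7 of 16 settings.

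**Figure D4:**
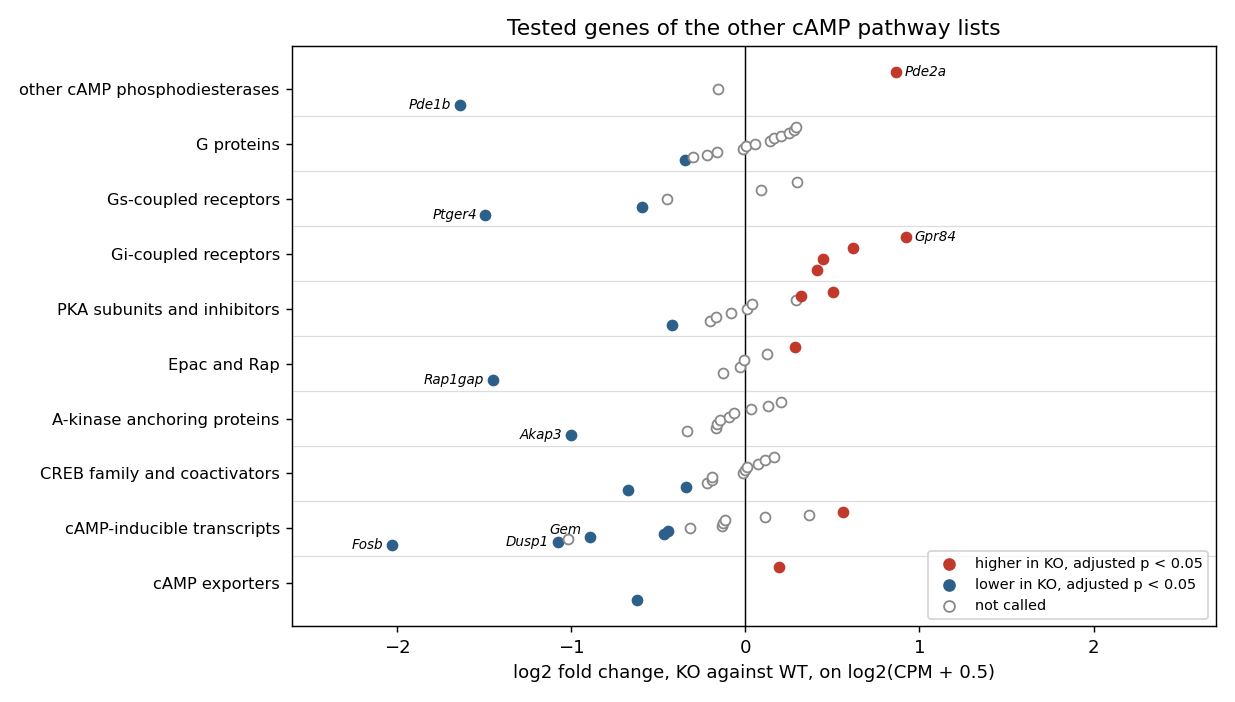
Log2 fold change, KO against WT on log2(CPM + 0.5), of the 76 tested genes of the other cAMP pathway lists, 1 row per list and 1 point per gene. Filled points are calls at an adjusted p under 0.05. All 4 Gi-coupled receptor genes lie right of 0, and Ptger4 is the lowest of the 5 Gs-coupled receptor genes at -1.49.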

How the data were processed

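Poly(A) RNA of RAW 264.7 cells was sequenced as paired-end reads after KAPA mRNA HyperPrep, per the labels' protocols. The submitters' processing notes name Trim Galore, FastQC, STAR 2.6.0a, Picard, SAMtools and the build mm10. Duplicates had been removed from coordinate-sorted alignments, per the file headers. The values deposited by the authors are CPM, each gene's reads relative to its library's total. Which program counted reads, on what gene models and with what strand setting, is not given in the sources used. Of the CPM values, 100% were whole multiples of 1 read within 0.01 of a read, so reads were recovered by division. All 6 value columns matched a sample title or description.

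A gene entered the test at 1 CPM or more in at least 3 libraries. The test was limma 3.58.1 (R 4.3.3; eBayes with a mean-variance trend) of log2(CPM + 0.5), with Benjamini-Hochberg adjustment over all tested genes. edgeR 4.0.16 (quasi-likelihood) and DESeq2 1.42.0 ran on the recovered reads as alternatives. Others were pseudocounts of 0.1 and 1, no filter, a filter of 5 CPM, TMM, quantile normalization, totals without Rn45s, a replicate block and leaving out each library. Merged exon lengths and coordinates came from GENCODE M21, which matched 24305 of the symbols and left 543 unmatched, and promoters came from RefSeq. In data simulated from this comparison with 10573 genes tested, limma called 62 of 67 genes changed 1.5-fold (92.5%) and 66 of 66 changed 2-fold (100%), with 14 false calls. The simulation changed 200 genes and gave each gene the spread typical of its level. Its rates therefore do not hold for genes whose libraries were more uneven than that, nor for a table with 3230 calls. Tables and figures used Python 3.11.15, pandas 2.3.3 and matplotlib 3.10.9.

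The 10 genes and the lists were chosen with earlier results of these data known. All 10 are named, and in each other list up to 4 called genes with the smallest adjusted p. Adcy2, Pde8b, Gnas, Gnai3, Gng5, Gng10, Ric8b, Cebpb, Ptgir, Calcrl, Prkar2b, Prkaca, Prkacb, Rapgef3, Rapgef4, Akap13, Creb1, Fos, Fosb, Dusp1, Cenpo and Ttc33 were named after their values were seen. Intervals on reads cover counting error only.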

Additional observations from a re-analysis of the deposited data

How the results depend on the processing

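Pde8a, Pde4b, Pde4d and Adcy6 kept their direction and their call under all 16 alternatives. Adcy6 passed the filter on low values only through its WT libraries, so its kept call is no measure of robustness. Over the 9 tested genes, Adcy6 included, 128 gene and setting pairs kept the call status, 15 lost a call and none changed sign past the threshold. Adcy3 and Pde7a lost theirs without a filter on low values, with quantile normalization and with the replicate block, which left 4 of the 10 genes called, and a filter of 5 CPM removed Adcy3. Leaving out 1 library at a time gave 1973 to 3761 called genes over the table, 4 to 6 among the 10 and 15 to 36 in the pathway lists, with the lowest table count, 1973, and the lowest pathway count, 15, both without KO replicate 1. The replicate block gave 2009 called genes, against 3230 without it. Deviations of same-numbered KO and WT libraries correlated at -0.25, -0.64 and -0.17, so the numbers do not pair the libraries. Other pairs ran from -0.44 (KO replicate 3 with WT replicate 1) to 0.61 (KO replicate 3 with WT replicate 2). What the libraries of such pairs share was not tested. The pathway split, 10 higher and 15 lower, was 17 and 17 with DESeq2, 16 and 13 with TMM and 12 and 12 with quantile normalization. The split over all tested genes, 1436 higher and 1794 lower, moved in the same direction. It was 1870 and 1888 with DESeq2, 1839 and 1570 with TMM and 1570 and 1486 with quantile normalization. The causes of these shifts were not tested. Pde3b had too few reads to be tested, and the simulation did not cover a difference as small as that of Pde4a.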
